A study of Mus musculus with 8 samples.

Results

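The 7 mouse genes of the MLL and SET1 family, *Kmt2a*, *Kmt2b*, *Kmt2c*, *Kmt2d*, *Setd1a*, *Setd1b* and *Kmt2e*, were taken by their symbols from the deposited table of scaled values, which holds 25485 genes, and joined by their Ensembl identifiers to the deposited table of read counts, which holds 53801 genes. All 7 were found in both tables and all 7 passed the filter on low counts. The libraries were made from Lgr5-GFP+ cells of the mouse intestine, sorted as EpCAM+ and CD45-, with 1 small pool of cells per mouse. In every mouse an Lgr5-EGFP-IRES-CreERT2 allele expressed the tamoxifen-dependent Cre recombinase in Lgr5+ stem cells, and Cre deleted exon 3 of β-catenin (β-catGOF), which leaves a stabilised protein. The 4 mice labelled β-catGOF; Mll1+/- (the controls) carried 1 floxed *Mll1* allele, and the 4 mice labelled β-catGOF; Mll1-/- (the knockouts) carried floxed *Mll1* on both chromosomes, so that the labels of the groups differ in *Mll1* alone and no library with unmutated β-catenin was used here. Tamoxifen was given at 50 mg per kg on 3 consecutive days to mice of 4 to 6 weeks, and the cells were taken on day 10. The sort selected GFP and not recombined cells, so cells that kept a floxed allele can be in a pool. The libraries labelled β-catGOF; Mll1-/- are J_7075, J_7096, J_7135 and J_7136, and those labelled β-catGOF; Mll1+/- are J_7079, J_7100, J_7134 and J_7139. The library numbers in the file header form a consecutive block for J_7075, J_7079, J_7096 and J_7100 and, after a gap, another for J_7134, J_7135, J_7136 and J_7139. These blocks of numbers are called the first and the second run here, although no source used here says what separates them. The libraries are called Mll1-/- and Mll1+/- libraries below, after their labels.

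Methylation of lysine 4 of histone H3 (H3K4) marks promoters and enhancers of genes that are active or held ready for activity. The enzymes that place it are large proteins with a catalytic SET domain, and they work in complexes around a shared core of Wdr5, Rbbp5, Ash2l and Dpy30 (WRAD). The family falls into pairs: Mll1 and Mll2 (*Kmt2a*, *Kmt2b*) bind menin and act mainly at promoters, Mll3 and Mll4 (*Kmt2c*, *Kmt2d*) act mainly at enhancers, and *Setd1a* and *Setd1b* place much of the H3K4 trimethylation of active promoters. Mll5 (*Kmt2e*) has a SET domain without established activity on H3K4 and reads the mark through its PHD finger.

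The genes lie on 4 autosomes of GRCm38, *Kmt2a* at chr9:44803355-44881296 and *Kmt2b* at chr7:30568858-30588726 on the minus strand, *Kmt2c* at chr5:25271798-25498783 and *Kmt2d* at chr15:98831669-98871204 on the minus strand, and *Kmt2e* at chr5:23434441-23504235, *Setd1a* at chr7:127776670-127800122 and *Setd1b* at chr5:123142193-123168629 on the plus strand. Coding sequences of the longest coding transcripts (GENCODE release M21, same build) ran from 1716 codons in *Setd1a* to 5588 in *Kmt2d*. Reads of near-identical copies can be exchanged in a count table, so the longest run of identical coding bases was searched in each of the 21 pairs of members. The runs of the pairs *Kmt2a* and *Kmt2b* and *Kmt2c* and *Kmt2d* are printed as the stretches over which these partners are identical for the most bases, in capitals and with up to 15 coding bases of the same exon on each side in lower case, 5′ to 3′ on the coding strand.
*Kmt2a*, chr9:44807912-44807961, minus strand: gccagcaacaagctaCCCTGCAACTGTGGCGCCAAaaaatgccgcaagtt
*Kmt2b*, chr7:30569171-30569220, minus strand: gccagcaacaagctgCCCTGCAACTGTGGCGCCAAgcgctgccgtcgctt
*Kmt2c*, chr5:25315754-25315820, minus strand: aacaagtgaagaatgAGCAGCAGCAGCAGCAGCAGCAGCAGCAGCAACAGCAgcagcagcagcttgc
*Kmt2d*, chr15:98845648-98845714, minus strand: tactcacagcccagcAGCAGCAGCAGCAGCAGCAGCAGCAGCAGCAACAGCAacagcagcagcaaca
The run of *Kmt2a* and *Kmt2b* has 20 bases and ends 22 bases before the end of both coding sequences, in the last exon, the end at which these proteins carry the SET domain. The run of *Kmt2c* and *Kmt2d* is a repeat of 37 bases, the longest of any pair. The 31-base words of the annotated transcripts of each member were searched in other genes, leaving out genes with exons that overlap the member. Between 0.0119% (*Kmt2a*) and 2.45% (*Kmt2d*) of the words of a member also occurred in a transcript of the genes searched. *Kmt2c* and *Kmt2d* were the members that shared any such word with another member.

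Overlapping annotation touches *Setd1a* most. Of the 6795 exonic bases of *Setd1a*, 3552 (52.3%) also belong to exons of other genes, nearly all of them to *Gm49388*, a gene model on the same strand that holds 68.4% of the *Setd1a* coding bases within chr7:127785608-127799480. The counting command in the file header did not set the option that lets a read count for several genes, and without it featureCounts leaves such reads out. *Gm49388* has 0 counts in each of the 8 libraries. *Kmt2e* shares 972 bases (9.31%), which hold no coding base of *Kmt2e*, with *Srpk2*, *Kmt2a* shares 378 bases (2.27%) with *AC061963.1* and *Kmt2c* shares 274 with *Gm42585*, while *Kmt2b*, *Kmt2d* and *Setd1b* share none.

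Depth was between 14468751 and 16847793 counts on genes per library, and the 7 genes together held 3541 to 6031 of them. Mitochondrial genes took 17.1 to 27.1% of the counts of the Mll1-/- libraries and 23.3 to 30.1% of those of the Mll1+/- libraries. Single genes are given in CPM, counts per 1000000 after TMM scaling of the library totals. The stem cell and epithelial markers of the sort were abundant, with *Lgr5* at 261 ± 19.9 CPM in the Mll1-/- and 271 ± 41.0 CPM in the Mll1+/- libraries (SD, n = 4 each), and *Ptprc*, which encodes CD45, did not exceed 0.957 CPM. Some marker lists differed between the genotypes. The summed CPM of 5 epithelial markers lay between 3177 and 3750 in the Mll1-/- and between 2508 and 2746 in the Mll1+/- libraries. For 8 enterocyte markers the sums were 181 to 259 and 304 to 396 CPM. Of 10 goblet cell markers, 4 were higher in every Mll1-/- than in every Mll1+/- library, as were 3.34% of all genes. The log2 fold change was below 0 for 2 of the 10, *Zg16* with -4.03 and *Spink4* with -0.54. Of 8 Paneth cell markers, 1 was higher and 2 were lower without overlap of the genotypes. Among 6 enteroendocrine markers tested, 2 were lower without overlap, as were 2.94% of all genes. The sums of the goblet, the Paneth and the enteroendocrine lists overlapped. The summed CPM of 10 stem cell markers lay between 10813 and 17171 in the Mll1-/- and between 22956 and 27429 in the Mll1+/- libraries, a difference carried by *Olfm4* and *Slc12a2*, since the other 8 markers, *Lgr5* among them, summed to 1565 to 1911 and 1519 to 1717 CPM. *Vim*, a filament gene of mesenchymal cells that was 1 of 8 markers of stroma and endothelium, lay between 44.3 and 116 against between 0.194 and 4.89 CPM. The 8 markers summed to 50.3 to 122 and 6.13 to 12 CPM, and *Col1a1*, a collagen gene of fibroblasts in that list, reached at most 0.854 and 0.598 CPM. What part these differences have in the values of the 7 genes was not tested. In such pools a smaller number of cells of a type and less RNA per cell cannot be told apart. Sex is not labelled, and *Xist* was at 0.649 and 2.84 CPM in the Mll1-/- and at 523 and 517 CPM in the Mll1+/- libraries of the first run, while in the second run it was at 208 and 759 CPM in the Mll1-/- and at 0 and 404 CPM in the Mll1+/- libraries. Within the first run a difference between the genotypes can therefore not be told apart from one between libraries low and high in *Xist*. J_7135 lay apart, with a Spearman correlation over genes of 0.909 with its nearest library where the others had at least 0.947, and the log2 fold changes of the members are given without it as well.

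*Kmt2a* encodes Mll1, the targeted protein. It was at 59.5 CPM in J_7075, 62.6 in J_7096, 78.5 in J_7135 and 53.5 in J_7136, and at 50.2 in J_7079, 64.9 in J_7100, 51.2 in J_7134 and 48.9 in J_7139. J_7135 was the highest of the 8 libraries, J_7100 stood alone among the Mll1+/- libraries, above 3 of the Mll1-/- libraries, and the genotypes overlapped. The fold of *Kmt2a* in the Mll1-/- over the Mll1+/- libraries was 1.18 with a 95% interval from 0.913 to 1.53, so that a fold below 0.913 lies outside it. The mean log2 CPM differed by 0.23 (exact two-sided permutation test over 70 assignments, p = 0.171, and the smallest p possible is 0.0286), by 0.10 within the first and by 0.37 within the second run. Without TMM scaling the difference was 0.42 (exact permutation p = 0.0571), and without J_7135 it was 0.13 (exact permutation p = 0.314). Each count covers all exons of the gene together, and which exons the floxed allele removes is not given in the sources used here. A count from exons outside the deleted part does not test the deletion.

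None of the 7 genes was called different between the genotypes. With edgeR's quasi-likelihood test and an adjusted p under 0.1 over 16445 genes, 0 of 7 passed, where 0.0851% of all genes tested did (0.0486% higher and 0.0365% lower), and the smallest adjusted p was 0.624 (*Setd1a*). At an unadjusted p under 0.05 it was again 0 of 7 (9.15% of all genes, 5.4% higher and 3.75% lower), and DESeq2 and limma-voom each called 0 of 7. The CPM of the genotypes did not overlap in 6.28% of all genes (3.34% higher and 2.94% lower) and overlapped in each of the 7. The log2 fold changes ran from -0.31 to 0.48 with a median of -0.01, 3 above and 4 below 0, and the median of all genes tested was 0.0076.

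**Figure D1:**
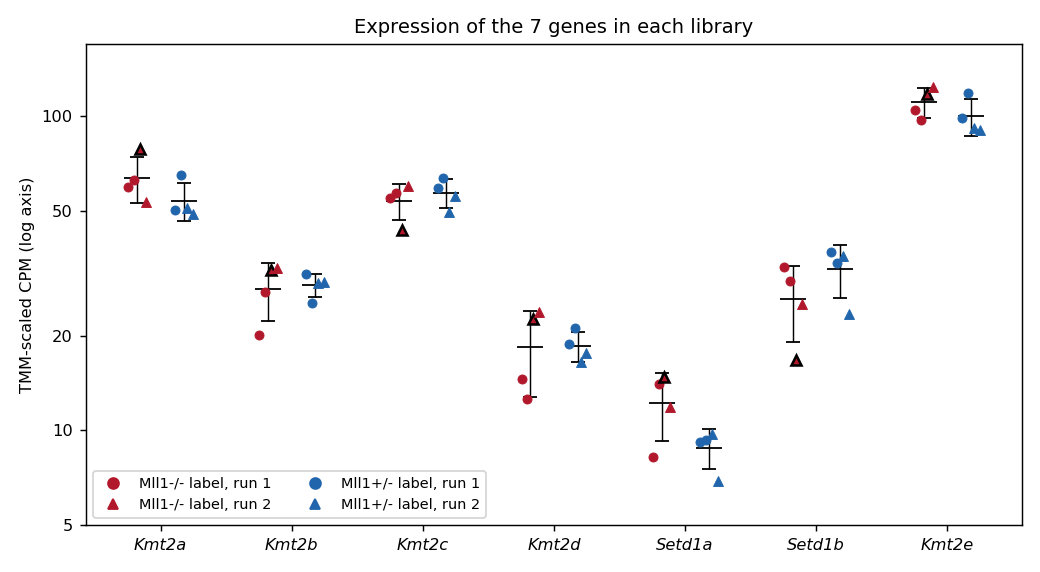
TMM-scaled CPM of the 7 genes in each library on a log axis, red for Mll1-/- and blue for Mll1+/- labels, circles for the first and triangles for the second run, J_7135 outlined in black, with the mean and SD of 4 libraries as black bars. The genotypes overlap in all 7 genes, and J_7135 is the highest point of *Kmt2a* and *Setd1a* and the lowest of *Kmt2c* and *Setd1b*.

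*Kmt2b*, the partner of *Kmt2a*, was at 20.1 CPM in J_7075, 27.5 in J_7096, 32.3 in J_7135 and 32.8 in J_7136, and at 31.4 in J_7079, 25.5 in J_7100, 29.5 in J_7134 and 29.6 in J_7139. The lowest and the highest values were both in Mll1-/- libraries, and the Mll1+/- libraries lay between them. Its log2 fold change was -0.04 (standard error 0.20, 95% interval from -0.48 to 0.40, adjusted p = 0.971, edgeR), with differences of -0.26 in the first and 0.14 in the second run, and it was -0.11 without J_7135. The interval of the fold was 0.717 to 1.32, which covers the ratio of equal levels and does not show them to be equal.

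The enhancer enzymes *Kmt2c* and *Kmt2d* had means that differed little between the genotypes but unlike spreads. *Kmt2c* was at 54.9 CPM in J_7075, 57.0 in J_7096, 43.6 in J_7135 and 59.9 in J_7136, and at 59.3 in J_7079, 63.6 in J_7100, 49.6 in J_7134 and 55.9 in J_7139. J_7135 was the lowest library, and the other 3 Mll1-/- libraries lay inside the range of the Mll1+/- libraries. The log2 fold change of *Kmt2c* was -0.08 (standard error 0.15, 95% interval from -0.43 to 0.26, adjusted p = 0.904, edgeR), and the differences were -0.13 in the first and -0.04 in the second run. Without J_7135 it was 0.00. *Kmt2d*, the Mll4 gene, was at 14.6 CPM in J_7075, 12.6 in J_7096, 22.6 in J_7135 and 23.8 in J_7136, and at 18.8 in J_7079, 21.2 in J_7100, 16.5 in J_7134 and 17.6 in J_7139. Both Mll1-/- libraries of the first run were below every Mll1+/- library, and both of the second run were above every one. The log2 fold change of *Kmt2d* was -0.01 (standard error 0.25, 95% interval from -0.57 to 0.55, adjusted p = 0.995, edgeR), and the difference was -0.55 within the first and 0.44 within the second run, so the pooled value near 0 stands for 2 runs of opposite sign. Without J_7135 it was -0.13.

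*Setd1a* and *Setd1b*, which encode the catalytic subunits of the SET1 complexes, had the largest log2 fold changes of the family and opposite signs. *Setd1a* was at 8.20 CPM in J_7075, 14.1 in J_7096, 14.8 in J_7135 and 11.9 in J_7136, and at 9.21 in J_7079, 9.35 in J_7100, 9.71 in J_7134 and 6.91 in J_7139. Of the Mll1-/- libraries, 3 were above every Mll1+/- library, and J_7075 was below 3 of them. Its log2 fold change was 0.48 (standard error 0.26, 95% interval from -0.10 to 1.06, adjusted p = 0.624, edgeR), 0.21 and 0.69 within the runs and 0.37 without J_7135, and it rests on 107 to 273 counts per library, the fewest of the 7 genes. Reads over the exonic bases that *Setd1a* shares with other genes are not among these counts. *Setd1b* was at 33.1 CPM in J_7075, 29.9 in J_7096, 16.8 in J_7135 and 25.2 in J_7136, and at 37.0 in J_7079, 34.2 in J_7100, 35.9 in J_7134 and 23.4 in J_7139. The lowest library was J_7135, and 3 of the Mll1+/- libraries were above every Mll1-/- library while J_7139 was not. The log2 fold change of *Setd1b* was -0.31 (standard error 0.25, 95% interval from -0.87 to 0.24, adjusted p = 0.746, edgeR), -0.18 and -0.49 within the runs, and -0.15 without J_7135.

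*Kmt2e*, the most abundant member, was at 105 CPM in J_7075, 97.4 in J_7096, 118 in J_7135 and 124 in J_7136, and at 98.8 in J_7079, 119 in J_7100, 91.5 in J_7134 and 90.3 in J_7139. The 2 Mll1+/- libraries of the second run were the lowest, and J_7100 was higher than 3 of the Mll1-/- libraries. Its log2 fold change was 0.15 (standard error 0.14, 95% interval from -0.15 to 0.46, adjusted p = 0.784, edgeR), with -0.10 within the first and 0.41 within the second run, and 0.12 without J_7135. *Kmt2e* had the narrowest interval of the family, and *Setd1a* the widest.

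**Figure D2:**
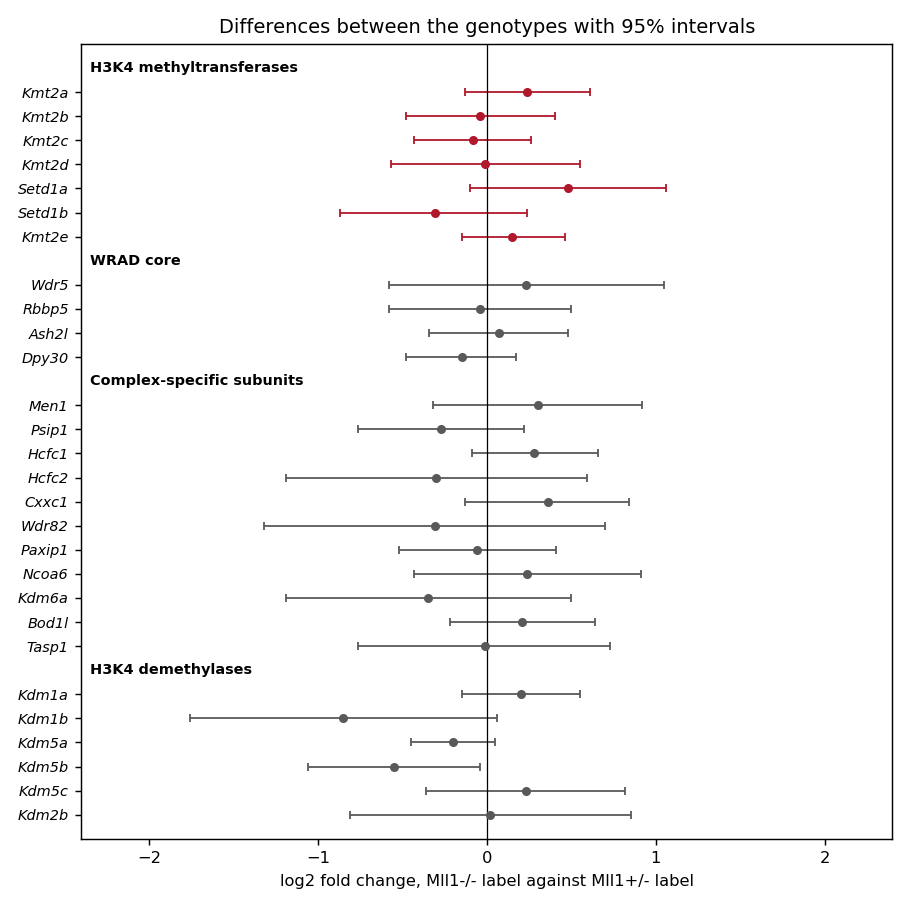
Log2 fold change of the Mll1-/- against the Mll1+/- libraries (x axis, points) with 95% intervals (bars, edgeR, n = 4 each) for the 7 methyltransferase genes (red) and for the tested genes of the WRAD core, the complex-specific subunits and the H3K4 demethylases (grey). The intervals of all 7 members include 0, and among the grey genes that of *Kdm5b* does not.

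Levels of different genes were compared as CPM per kilobase of exonic length. *Kmt2e* had 10.1 ± 1.26 CPM per kilobase (SD, n = 8), *Kmt2a* 3.52 ± 0.598, *Kmt2b* 2.98 ± 0.441, *Kmt2c* 2.73 ± 0.310, *Setd1b* 2.44 ± 0.586, *Setd1a* 1.55 ± 0.413 and *Kmt2d* 0.926 ± 0.196. *Kmt2e* was above *Kmt2a* in 8 of 8 libraries and its range did not meet that of any other member. The middle of the order was not resolved: *Kmt2a* was above *Kmt2b* in 4 of 8 libraries, *Kmt2b* above *Kmt2c* in 6 and *Kmt2c* above *Setd1b* in 5. *Kmt2d* was below *Setd1a* in each of the 8 libraries, although the ranges over libraries overlapped. Among all genes tested, the level per kilobase stood at percentile 72.2 for *Kmt2e*, 48.2 for *Kmt2a* and 18.7 for *Kmt2d*. On this scale *Kmt2d* was thus one of the less abundant genes and *Kmt2a* one near the middle. Reverse transcription used a dT primer, and coverage along these long transcripts was not examined. Its part in the levels per kilobase was not tested.

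The place of *Setd1a* in this order depends on the length. Reads over the bases that it shares with other genes were left out of its counts. Its whole length thus holds bases that could add no counts, and 1.55 understates its level. Per kilobase of exonic sequence that it shares with no other gene, it had 3.24 ± 0.865 CPM (SD, n = 8), with libraries from 2.13 to 4.55, in place of 1.55, and its mean came after those of *Kmt2e* and *Kmt2a* and before that of *Kmt2b*. Its place beside the last 2 was not resolved, with *Kmt2a* above *Setd1a* in 6 of 8 libraries and *Setd1a* above *Kmt2b* in 5. *Kmt2e* had 11.1 and *Kmt2a* 3.6 on this scale, and *Kmt2c* had 2.77. The fold changes between genotypes do not use the length. With the first length *Kmt2e* gave 42.6 ± 2.54% of the summed CPM per kilobase of the 7 genes in the Mll1-/- and 40.5 ± 2.00% in the Mll1+/- libraries (SD, n = 4 each), and *Kmt2a* gave 15.3 ± 2.41% and 13.7 ± 0.919%, with overlap between the genotypes for each of the 7 genes. On the length not shared with other genes, *Kmt2e* gave 41.7 ± 2.86% and 40.4 ± 2.08%, and *Kmt2a* 13.9 ± 2.10% and 12.6 ± 0.859%.

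**Figure D3:**
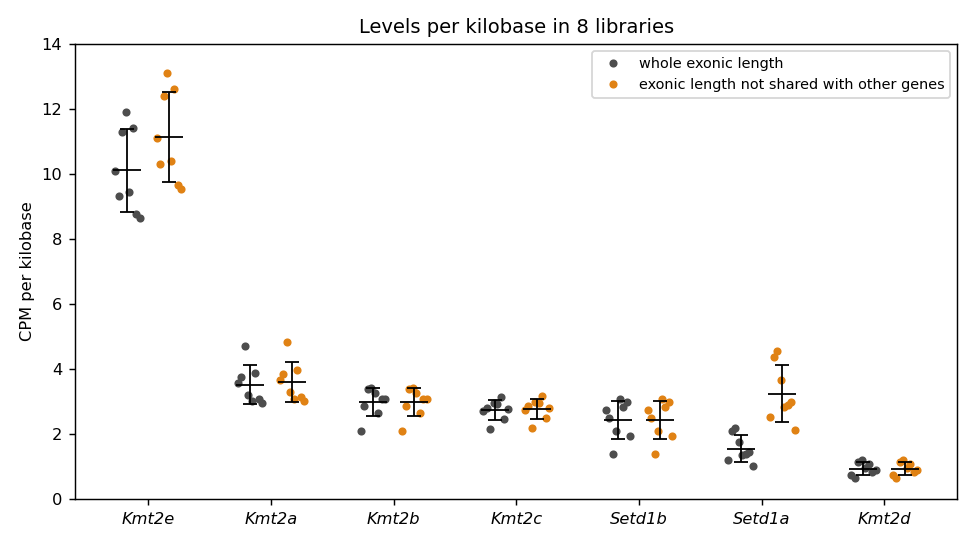
CPM per kilobase (y axis) of each gene in the 8 libraries as points, with the mean and SD as black bars, on the whole exonic length (grey) and on the exonic length not shared with other genes (orange). *Kmt2e* lies above all other members, and *Setd1a* moves from 1.55 to 3.24 with the length used.

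The sum over the family differed between the genotypes on 1 scale and not on others. As a share of all counts on genes, the 7 genes took 0.0323% in J_7075, 0.0315% in J_7096, 0.0366% in J_7135 and 0.0331% in J_7136, and 0.0302% in J_7079, 0.0306% in J_7100, 0.0245% in J_7134 and 0.0268% in J_7139. Every Mll1-/- library was above every Mll1+/- library on this scale, which also holds the mitochondrial counts. How many of all genes lie apart on this scale was not counted, so the separation is not shown to be particular to the family. The factors by which TMM scales the library totals lay apart as well. They were 1.003 to 1.126 for the Mll1-/- and 0.864 to 0.9949 for the Mll1+/- libraries. As a share of the counts on nuclear genes the ranges overlapped, with 0.0398 to 0.0454% in the Mll1-/- and 0.0350 to 0.0429% in the Mll1+/- libraries. The summed TMM-scaled CPM overlapped as well, with 313 ± 17.7 and 300 ± 28.6 (SD, n = 4 each), and neither sum was tested. J_7134, the library with the lowest share of the family, had the highest mitochondrial share at 30.1%. The 2 shares did not go together throughout. J_7136 had 27.1% mitochondrial counts and a family share of 0.0331%, and J_7139 had 23.3% and 0.0268%. The part of the mitochondrial counts in the first of these results was not tested.

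**Figure D4:**
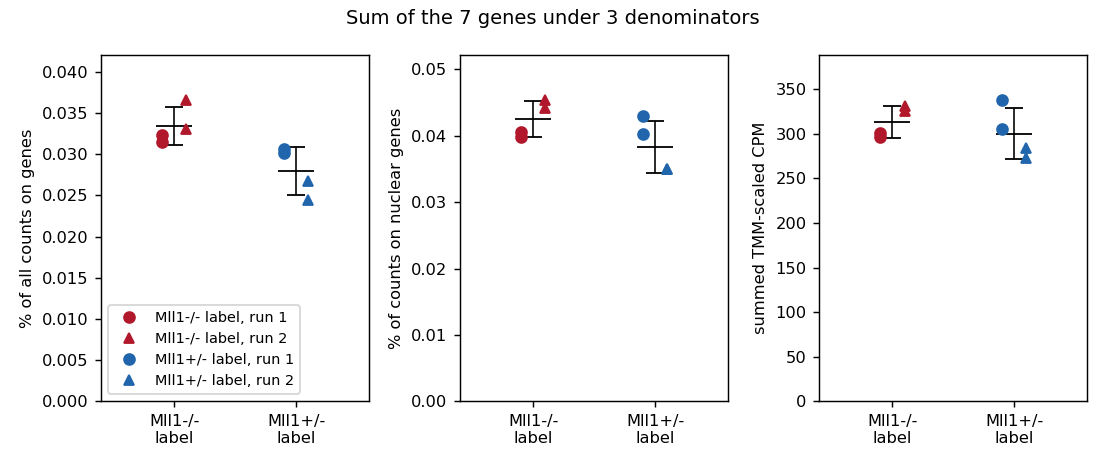
Sum of the 7 genes in each library (points, colours and symbols as in the plot of CPM by library) with the mean and SD of 4 libraries (black bars), as a percentage of all counts on genes, as a percentage of the counts on nuclear genes and as TMM-scaled CPM. The genotypes are apart in the first panel, with 0.0315 to 0.0366% against 0.0245 to 0.0306%, and overlap in the other 2.

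The members did not keep fixed proportions to each other. The log2 ratio of *Kmt2c* to *Kmt2d* was 1.62 ± 0.04 in the Mll1+/- and 1.59 ± 0.55 in the Mll1-/- libraries, and that of *Kmt2a* to *Kmt2e* was -0.89 ± 0.06 and -0.81 ± 0.28 (SD of log2 CPM ratios, n = 4 each). *Setd1a* over *Setd1b* had the largest difference of any pair, 0.79, with a log2 CPM ratio of -1.88 ± 0.10 in the Mll1+/- and -1.09 ± 0.75 in the Mll1-/- libraries, and the genotypes overlapped in this ratio and in the other 20. Without J_7135 the difference of this pair was 0.49, beside -0.49 for *Kmt2b* over *Setd1a* and -0.52 for *Kmt2d* over *Setd1a*. The SD was larger in the Mll1-/- libraries for 18 of the 21 pairs, which share genes and libraries and are no independent counts. It was also larger there for 6 of the 7 genes taken singly, where it was larger in 66.5% of all genes tested. Without J_7135 this held for 3 of the 7 genes and 49.8% of all genes, and for 18 of the 21 pairs. Ratios between pairs of other genes were not examined, so no share over all genes stands beside the count of pairs. That count is therefore not shown to be particular to the family.

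**Figure D5:**
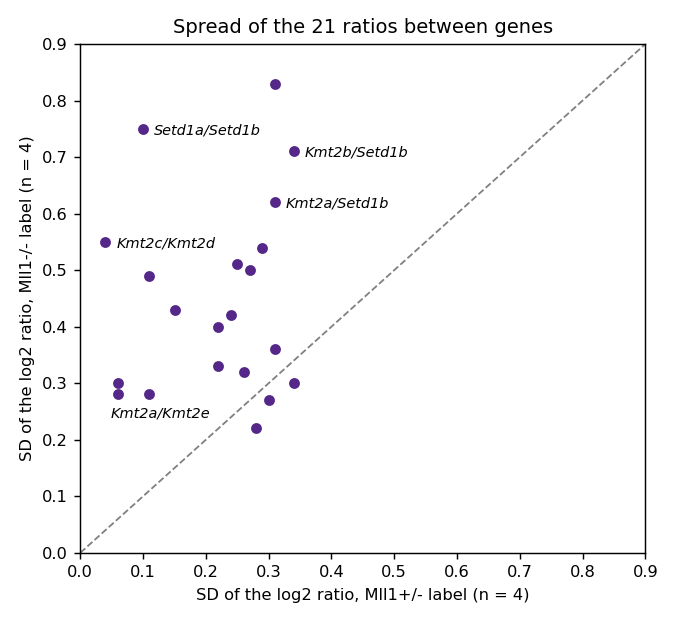
SD of the log2 CPM ratio of each of the 21 pairs of members in the Mll1+/- libraries (x axis) and in the Mll1-/- libraries (y axis), n = 4 each, with a dashed line where both are equal. Points above the line, 18 of 21, had a larger spread in the Mll1-/- libraries, with *Setd1a*/*Setd1b* at 0.10 and 0.75.

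Likeness to *Kmt2a* over the 8 libraries was measured as the SD of the log2 ratio of a gene to *Kmt2a*, among 8913 genes with a mean of at least 10 CPM. The lowest values were those of *Pip5k1b*, a lipid kinase gene, with 0.080, *Rbm17*, a splicing factor gene, with 0.085, *Tulp4* and the atypical cadherin *Fat1* with 0.091 each, and *Pigm*, an enzyme of GPI anchor synthesis, with 0.092. The median over the genes was 0.402. Of the family *Kmt2e* came closest with 0.194 and rank 192, followed by *Setd1a* (rank 1392), *Kmt2c* (2951), *Kmt2b* (3107), *Kmt2d* (3388) and *Setd1b* (6876). The partner gene *Kmt2b* was thus no nearer to *Kmt2a* than *Kmt2c* was, and *Setd1b* was farther from it than the median gene, at 0.545. These are descriptions over libraries that all genes share.

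The shared core of the complexes did not pass the test either. *Wdr5* had a log2 fold change of 0.23, which turned to -0.24 without J_7135, the library in which *Wdr5* was highest. *Rbbp5* had a log2 fold change of -0.04, *Ash2l*, the subunit that with *Rbbp5* stimulates the SET domain, of 0.07 (-0.03 without J_7135) and *Dpy30* of -0.15, and 0 of 4 were called. Of 12 complex-specific subunits 11 were tested, and 0 were called in either direction (median log2 fold change -0.01, with 0 at an unadjusted p under 0.05). The largest differences among them were those of *Cxxc1*, the CpG-binding subunit of the SET1 complexes, with 0.36 (adjusted p = 0.660, edgeR) and of *Kdm6a*, the H3K27 demethylase of the Mll3 and Mll4 complexes, with -0.35 (adjusted p = 0.835, edgeR). Single libraries moved both, *Cxxc1* to 0.15 and *Kdm6a* to -0.17 without J_7135, and *Kdm6a* to -0.60 without J_7134. *Men1*, the menin gene of the Mll1 and Mll2 complexes, was at 12.2 ± 2.11 and 9.94 ± 3.02 CPM, and *Pagr1a* had at most 1 count in any library and was not tested.

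The enzymes that remove H3K4 methylation were compared with the same fit. Of 6 demethylase genes 0 were called, and 1 had an unadjusted p under 0.05, lower in the Mll1-/- libraries (3.75% of all genes were lower at this p). It was *Kdm5b*, which removes trimethylation and was at 25.8 ± 6.51 against 37.8 ± 6.97 CPM (SD, n = 4 each), with a log2 fold change of -0.55 and an adjusted p = 0.524 (edgeR). *Kdm1b*, a flavin-dependent demethylase, had the larger fold change of -0.85 (adjusted p = 0.573, edgeR), lay at 5.90 CPM in J_7135 and had -0.56 without that library. Among 19 genes of other SET domain methyltransferases, which act on other lysines or place H3K4 methylation outside these complexes, 0 were called. Of the 19, 3 were higher at an unadjusted p under 0.05 (5.4% of all genes were higher at this p). In 13 the log2 fold change was above 0, as in 50.8% of all genes tested, and the median was 0.14. The largest were those of *Kmt5c*, an H4K20 methyltransferase, with 1.08 (adjusted p = 0.371, edgeR) and *Suv39h1*, an H3K9 methyltransferase, with 0.81 (adjusted p = 0.335, edgeR), and in both, 2 of 19, the Mll1-/- libraries lay above every Mll1+/- library, as they did in 3.34% of all genes. Without J_7135 *Kmt5c* had 0.81 and *Suv39h1*, which lies on the X chromosome, had 0.56. DESeq2, which called 2.74% of the genes it tested, called both of these and no other gene of the 4 lists, with an adjusted p of 0.0984 for *Kmt5c* and 0.0388 for *Suv39h1*. *Ctnnb1*, which encodes the β-catenin that all mice carried in stabilised form, had a log2 fold change of 0.10 (adjusted p = 0.860, edgeR), and *Lgr5*, by which the cells were sorted, of -0.06.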

How the data were processed

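Reads were aligned by the authors to the mm10 transcriptome (GSNAP), who counted uniquely mapped reads per gene of Ensembl release 92 with featureCounts 1.6.3 without using the strand, and deposited these raw counts. The authors also deposited a signal table of the counts divided by 1 size factor per library (0.811 to 1.17) and rounded, which gave the symbols and 1 alternative, and the gene lengths in bases. Libraries followed the Smart-seq2 protocol and carry no molecular identifiers, so that PCR copies are counted. Genes were filtered with filterByExpr (10 counts, 15 in total), scaled with TMM and compared with the robust quasi-likelihood test of edgeR 4.0.16 in R 4.3.3, with the genotype as the only term, two-sided, with Benjamini-Hochberg adjustment over all genes. The threshold is that of the paper's methods. Standard errors came from the F statistic and 95% intervals from the degrees of freedom of the fit. Exact permutation tests used mean log2 CPM. Log2 CPM used a pseudocount of 0.1 for spreads.

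Alternatives were DESeq2 1.42.0, limma 3.58.1 (voom with quality weights), other scalings, no filter, the run as a block and each library left out. The length not shared with other genes and the fit without mitochondrial genes were chosen after seeing the data. Named were the members, the WRAD core, the 2 largest fold changes of each list and the 5 genes most like *Kmt2a*. *Men1* and *Pagr1a* were chosen after seeing the data. *Olfm4*, *Slc12a2*, *Vim*, *Col1a1*, *Zg16*, *Spink4* and *Xist* were also named without a rule set beforehand. The members and lists were chosen with earlier results of these data known. Figures were drawn with matplotlib 3.10.9. Samples were grouped by their genotype labels. The sequence shared by *Setd1a* and *Setd1b* is not reported here.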

Additional observations from a re-analysis of the deposited data

Results flagged for a closer look

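In groups of 4 libraries a value was singled out where its gap to the nearest other value as a share of the range exceeded Dixon's 95% critical value, and 5 of 94 groups met this, where chance gives about 1 in 20. *Kmt2a* was at 64.9 CPM in J_7100 and between 48.9 and 51.2 in the other Mll1+/- libraries. *Wdr5*, of the WRAD core, was at 49.7 CPM in J_7135 against 16.8 to 21.4 in the other Mll1-/- libraries. *Ehmt2*, an H3K9 methyltransferase, was at 83.0 CPM in J_7135 against 30.0 to 37.3. *Paxip1*, a subunit of the Mll3 and Mll4 complexes, was at 48.0 CPM in J_7096 against 27.9 to 31. *Kdm6a*, which lies on the X chromosome, was at 25.6 CPM in J_7134 against 71.1 to 77.7 in the other Mll1+/- libraries. J_7134 had 0 counts of *Xist* and the other Mll1+/- libraries had 6251 to 8740. Of the Mll1-/- libraries, J_7075 and J_7096 had 11 and 49 counts of *Xist* and 37.6 and 57.9 CPM of *Kdm6a*. J_7135 had 3838 counts and 29.5 CPM, and J_7136 had 11554 counts and 71.1 CPM. The part of *Xist* and sex in the *Kdm6a* values was not tested. The spike-in transcripts, which no comparison uses, had 36 counts in J_7100 and at most 2 in the other libraries.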

How the results depend on the processing

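The count of members called was 0 under all alternatives run, and the limits are the 4 mice per genotype and, for *Setd1a*, the fewest counts. *Setd1a* reached an unadjusted p under 0.05 without J_7075, with a log2 fold change of 0.62 (adjusted p = 0.488, edgeR). Signs turned where values were near 0. With 1 library left out, the log2 fold change of *Kmt2b* lay between -0.12 and 0.09 (the highest without J_7075), that of *Kmt2c* between -0.15 and 0.00 (without J_7135), and that of *Kmt2d* between -0.16 and 0.13, above 0 without J_7075 (0.08), J_7096 (0.13) or J_7100 (0.06). Limma-voom with quality weights gave -0.18 for *Kmt2b* and -0.29 for *Kmt2d*, outside these ranges. The number of genes called over the whole table was 14 and went to 8 with upper quartile scaling, 47 with no filter, 406 with the DESeq2 Wald test, 103 with limma-voom, 0 with the run as a block (1642 at an unadjusted p under 0.05), and 0 to 45 with 1 library left out, the highest without J_7135, and the cause was not tested. The lists had 0 calls, or 2 with DESeq2 (*Suv39h1*, *Kmt5c*). *Setd1a* went from 1.55 to 3.24 CPM per kilobase on the length it shares with no other gene, the length over which its reads could be counted. The difference in *Kmt2a* level kept its sign under every alternative, between 0.10 and 0.42. No paired analysis was possible because the labels give the mice no shared replicate numbers.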
